A study of Mus musculus with 14 samples.

Results

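*Spsb1*, *Pmepa1*, *Bambi*, *Skil*, *Ski*, *Tgif1*, *Tgfbi* and *Ltbp1* are 8 genes that respond to, restrain or store TGF-beta signals. They were chosen with measured values of these same libraries known, so their levels and differences are given as a description. All 8 were found by symbol among the 26528 genes of the brain matrix and the 28316 genes of the retina matrix. The question put to them was which are lower after loss of *Tgfbr1* in endothelial cells (ECs), and whether they are lower in ECs only.

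TGF-beta ligands are secreted in a latent form that is tethered to the matrix, and once released they bring the type II receptor TGFBR2 together with the type I receptor TGFBR1, which phosphorylates SMAD2 and SMAD3. These SMADs enter the nucleus with SMAD4 and activate target genes, several of which encode inhibitors of the same pathway and so close a negative feedback loop. In vessels of the retina and brain the pathway is known for its roles in EC quiescence, in the assembly of the vessel wall and in the maintenance of the barrier.

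The study profiled single nuclei (snRNAseq) from whole mouse retinas and from brain vascular fragments, in which ECs had been enriched. Control libraries are labeled wild type. CKO libraries come from *Cdh5CreER;Tgfbr1 CKO/-* mice, in which 1 *Tgfbr1* allele is conditional, the other is a null allele in every cell, and Cdh5CreER (also called VEcadCreER) drives Cre in ECs after 4-hydroxytamoxifen (4HT) given between postnatal days 3 and 5. The retina was sampled with 1 control library and 11 CKO libraries, and the brain with 1 library of each genotype. Each brain library pooled 2 brains. The animals were 14 days old by the methods and young adults by the series text, and the labels name no 4HT for the controls. Retinal libraries fall into 3 labeled batches, the first with the control and CKO replicates 1 to 3, the next with CKO replicates 4 and 5, and the last with the remaining 6; they are called batch 1, 2 and 3. The v5.0 kit was used for CKO replicates 8 to 11, and the v4.0 PLUS kit for every other library.

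Values are unique molecular identifiers (UMIs), summed per gene over the nuclei of a cell type label in a library and divided by the total of that sum, as CPM (counts scaled to a total of 1000000). The brain control held 16649 nuclei with 49798325 UMIs and the brain CKO 14675 nuclei with 31033373 UMIs. The retinal control held 11513 nuclei with 30989702 UMIs. Retinal CKO libraries ranged from 104 nuclei with 90449 UMIs to 18862 nuclei with 55803724 UMIs, with medians of 4210 nuclei and 16443337 UMIs. Barcode sequences found in more than 1 library numbered 2 in the brain and 10 in the retina. The libraries also differed in sex-linked transcripts: *Xist* was at 1963 CPM in the brain control and 1.29 CPM in the brain CKO, and 4 Y-linked genes summed to 189 and 421 CPM. Retinal *Xist* was at 6779 CPM in the control and between 0.365 and 6823 CPM in the CKO libraries. The part of these differences in the results was not tested.

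Brain nuclei labeled ECs numbered 2475 in the control (5801552 UMIs, median 1347 per nucleus) and 2944 in the CKO (6851854 UMIs, median 1491). All 9 fixed EC markers had UMIs in both libraries, with a summed level of 11648 CPM in the control and 8943 CPM in the CKO, and *Flt1* the most abundant at 3982 and 2745 CPM. These nuclei also held all 8 fixed pericyte markers, at 8390 and 7127 CPM, led by *Rgs5* at 5631 and 4831 CPM. Of 5 markers of vascular smooth muscle cells (vSMCs), *Cnn1* was at 0 in both libraries and the sum was 96.5 CPM in the control and 93.0 CPM in the CKO, most of it *Acta2* at 62.4 and 56.0 CPM. Fibroblast markers summed to 614 and 434 CPM. All 7 cycling markers were found, at 262 CPM in the control and 564 CPM in the CKO, led by *Top2a* at 115 and 243 CPM. The part of pericyte transcripts and of cycling nuclei in the EC values is given below as far as subsets of nuclei can show it, and was otherwise not tested. Nuclei labeled vSMCs held EC markers at 4672 CPM in the control and 4575 CPM in the CKO, and nuclei labeled glia held fibroblast markers at 3774 and 3896 CPM. Nuclei labeled Glut_20 held astrocyte markers at 2103 and 2675 CPM and fibroblast markers at 292 and 343 CPM. These names are therefore used here as labels only.

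In the GRCm39 build, *Spsb1* lies on chromosome 4 (149866034 to 150039500), as do *Ski* (155238532 to 155307543) and *Tgfbr1* (47353134 to 47414931). *Pmepa1* is on chromosome 2 (173066251 to 173118444), *Skil* on chromosome 3 (31148816 to 31176740) and *Tgfbi* on chromosome 13 (56757336 to 56787375). *Tgif1* (71151192 to 71160541) and *Ltbp1* (75312519 to 75699507) are both on chromosome 17, and *Bambi* is on chromosome 18 (3507871 to 3516404).

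The targeted gene itself, *Tgfbr1*, encodes the type I receptor. It had 401 UMIs in control ECs and 431 UMIs in CKO ECs, at 69.1 and 62.9 CPM, a CKO over control ratio of 0.910 (95% interval 0.792 to 1.05). The levels were close, but UMIs counted over the whole gene include transcripts whether or not they keep the deleted stretch, so this value checks nothing about recombination. In the retina *Tgfbr1* was at 97.3 CPM in Müller glia (MG) of the control and at 55.8, 81.5 and 89.7 CPM (lowest, median, highest) in 10 CKO libraries. Rods gave 114 CPM in the control and 85.4, 88.3 and 102 CPM in the CKO libraries. In MG, rods, cone bipolar cells (CBC) and glycinergic amacrine cells (Gly_AC), all 10 CKO libraries were below the control, 9 of 10 were below it in immune cells, 10 of 11 in retinal ganglion cells (RGC) and 8 of 10 in rod bipolar cells (RBC), while 7 of 10 were above it in horizontal cells (HC) and 5 of 10 in cones and in GABAergic amacrine cells (GABA_AC).

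Within brain ECs, 4 of the 8 members were at least 2-fold lower in the CKO library (*Spsb1*, *Skil*, *Pmepa1* and *Tgfbi*, the last also in 4 of 7 alternative settings but not in the other 3), 1 was at least 2-fold higher (*Ltbp1*, in nuclei with the EC label but not in nuclei taken by EC markers) and 3 were within 2-fold (*Ski*, *Bambi* and *Tgif1*). Genes were compared where they had at least 50 UMIs over both libraries. Over all 11351 such genes, 3.9% were at least 2-fold lower and 9.45% at least 2-fold higher. Since the members were chosen on this contrast, nothing is read from that background. The values nearest the 2-fold limit were a ratio of 0.472 for *Tgfbi*, just inside it, and 0.646 for *Ski*, just outside. The median log2 ratio was -0.86 over the members and 0.14 over all genes tested. Scaling by the trimmed mean of M values (TMM) moved the median of all genes to 0.04 and scaling to the median ratio moved it to 0.02. These scalings changed the split of genes past 2-fold from 443 lower and 1073 higher (70.8% higher) to 580 and 891 (60.6%) and to 592 and 861 (59.3%). Relative to that shift the same 4 members were at least 2-fold lower and *Ltbp1* was at least 2-fold higher, with ratios scaled to the median gene from 0.0336 for *Spsb1* to 4.26 for *Ltbp1*. With 1 library per genotype no difference between brain libraries can be tested. All intervals here cover counting error only.

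**Figure D1:**
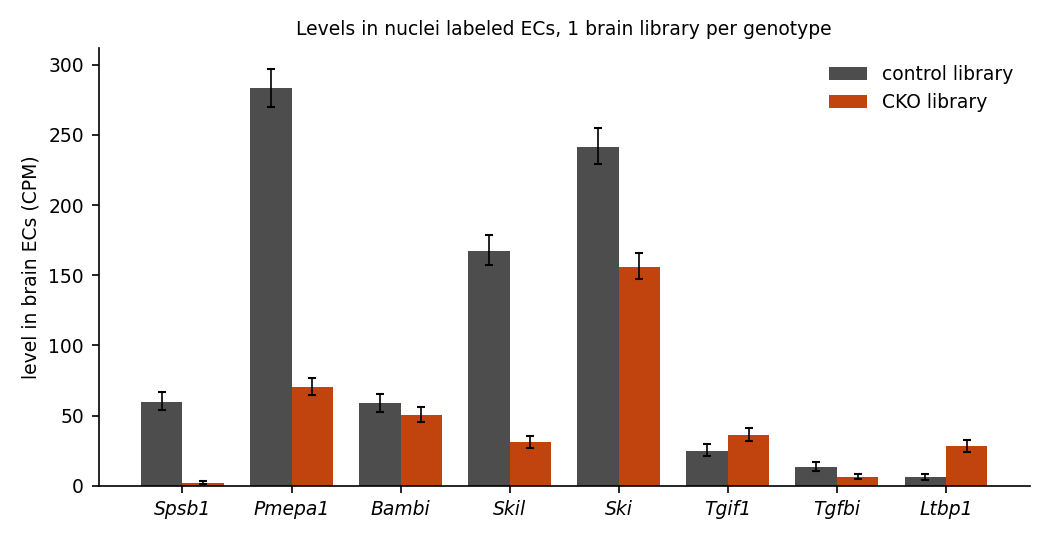
Level (CPM) of each member in brain nuclei labeled ECs, 1 control and 1 CKO library, with bars for the summed UMIs and 95% exact Poisson intervals as error bars. *Spsb1*, *Pmepa1* and *Skil* have intervals far apart between the libraries, at 59.8 against 2.19, 283.2 against 70.5 and 168 against 30.9 CPM, *Ltbp1* is the 1 member with a much higher bar in the CKO library, and *Bambi* bars are close.

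Of the feedback inhibitors, *Spsb1* encodes a SPRY and SOCS box protein, the substrate-binding subunit of a ubiquitin ligase that lowers receptor levels. Its EC sums were 347 UMIs in the control and 15 UMIs in the CKO, at 59.8 CPM (95% interval 53.7 to 66.4) and 2.19 CPM. *Spsb1* was thus 27.3-fold lower in CKO ECs, with a ratio of 0.0366 (0.0203 to 0.0612), the 4th lowest of the 11351 genes. The 4 other labels that could be compared had ratios from 0.939 to 2.27. In oligodendrocytes, which had the highest level in the control, it was at 166 CPM in the control and 225 CPM in the CKO, a ratio of 1.36 (1.11 to 1.66). Oligodendrocyte precursors (OPCs) had 92.2 and 139 CPM, astrocytes 32.3 and 73.2 CPM, and the label CP_6 65.4 and 61.5 CPM. The astrocyte ratio was 2.27 (1.42 to 3.59), and CP_6, with a ratio of 0.939 (0.721 to 1.21), was the 1 label of the 4 compared outside ECs in which the CKO was the lower library. In the order of control levels, oligodendrocytes stood clear of OPCs, and the intervals of OPCs, CP_6 and ECs, which came next, overlapped between neighbors. ECs took the 4th place of 20 labels with at least 100000 UMIs in the control and the 15th of 18 in the CKO. Of all *Spsb1* UMIs in the brain libraries, ECs held 33.5% in the control and 3.18% in the CKO, while their share of the UMIs of all genes was 11.7% and 22.1%.

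*Pmepa1* encodes a membrane protein that binds receptor-activated SMADs and limits their signal. It had 1643 UMIs in control ECs and 483 UMIs in CKO ECs, at 283.2 CPM (269.7 to 297) and 70.5 CPM (64.3 to 77.1). The CKO level was 4.02-fold lower, a ratio of 0.249 (0.224 to 0.276), and the intervals of the libraries were far apart. Among labels with at least 100000 UMIs, ECs had the highest control level. Next came glia at 141 CPM and the label Glut_20 at 123 CPM, whose intervals overlapped each other. Control microglia, under that limit, were at 188 CPM from 15 UMIs, and their interval (105 to 310) overlapped that of ECs. In the CKO library the order changed: glia came first at 224 CPM, followed by the GABAergic neuron label GABA_9 at 129 CPM, and ECs were the 5th of 18. Among 9 other labels with enough UMIs, the ratio was above 1 in 8, and it was 2.10 (1.56 to 2.83) in CP_6, 2.12 (1.40 to 3.18) in CP_8 and 3.41 (2.15 to 5.55) in Glut_1. Those higher ratios start from low control levels of 30.3, 27.7 and 4.04 CPM. In Glut_20 it was 0.820 (0.458 to 1.40). The EC share of all *Pmepa1* UMIs was 54.0% in the control and 31.4% in the CKO.

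*Bambi* encodes a pseudoreceptor that resembles type I receptors but lacks the kinase domain. Its UMIs in ECs were 341 in the control and 344 in the CKO, or 58.8 CPM (52.7 to 65.4) and 50.2 CPM (45.0 to 55.8). The levels were close, with a ratio of 0.854 (0.733 to 0.995) by CPM and 0.784 when scaled to the median gene. In nuclei taken by EC markers the direction turned, with a ratio of 1.11 (0.955 to 1.28). ECs had the highest *Bambi* level of all labels in both libraries, above vSMCs at 22.6 CPM in the control and 23.2 CPM in the CKO. The EC share of all *Bambi* UMIs was 78.6% (control) and 88.9% (CKO). Outside ECs 1 label had enough UMIs, CP_6, with 13.9 and 21.9 CPM and a ratio of 1.57 (0.960 to 2.55).

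Among the SMAD corepressors, *Skil* encodes SnoN, which binds SMAD complexes on DNA, represses their targets and is itself a target. Control ECs had 972 UMIs of it and CKO ECs 212, at 168 CPM (157 to 178) and 30.9 CPM (26.9 to 35.4). The CKO level was 5.41-fold lower, a ratio of 0.185 (0.158 to 0.214), the 45th lowest of 11351. ECs were first of 20 labels with at least 100000 UMIs in the control, well above vSMCs at 67.2 CPM and glia at 46.2 CPM (microglia, under that limit, had 213 CPM from 17 UMIs), and 7th of 18 in the CKO. None of the 10 other labels compared came near this ratio. vSMCs were at 67.2 and 65.8 CPM, a ratio of 0.979 (0.549 to 1.64), and glia at 46.2 and 76.1 CPM, a ratio of 1.65 (1.09 to 2.46). The lowest, in Glut_1, was 0.715 (0.558 to 0.911) and the highest, in CP_6, was 1.87 (1.05 to 3.29). The EC share of all *Skil* UMIs went from 48.8% in the control to 24.5% in the CKO.

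*Ski*, the founding member of the same family, had 1402 UMIs in control ECs and 1070 in CKO ECs, at 242 CPM (229 to 255) and 156 CPM (147 to 166). The CKO was 1.55-fold lower, a ratio of 0.646 (0.596 to 0.700), which falls short of 2-fold although the intervals do not overlap. Among labels with at least 100000 UMIs, CP_6 had the highest level in both libraries, 293 CPM in each, with a ratio of 1.00 (0.888 to 1.13). In the control, ECs came next and overlapped with Glut_5 at 219 CPM, and in the CKO they were 5th of 18. Of the 15 other labels compared, 13 had a ratio above 1, up to 1.89 (1.12 to 3.23) in Glut_21. Microglia had 651 CPM from 52 UMIs in the control and 273 CPM from 4 UMIs in 11 CKO nuclei, a ratio of 0.420 whose interval of 0.110 to 1.14 includes 1. In microglia 64.3% of the 364 genes compared were at least 2-fold lower, with a median log2 ratio of -1.51, so the *Ski* ratio there is not read as a difference of *Ski*.

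*Tgif1* encodes a homeodomain repressor that recruits histone deacetylases to SMAD complexes. It was low in ECs, with 145 control and 249 CKO UMIs, or 25.0 CPM (21.1 to 29.4) and 36.3 CPM (32.0 to 41.1). Here the CKO was the higher library, with a ratio of 1.45 (1.18 to 1.80) by CPM and 1.33 when scaled to the median gene. In CP_6 the levels were 29.7 and 50.5 CPM, a ratio of 1.70 (1.23 to 2.34), and no other label had 50 UMIs. CP_6 ranked first and ECs ranked next in both libraries, and their intervals overlapped in both. The EC share of all *Tgif1* UMIs was 48.3% in the control and 76.1% in the CKO.

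Of the matrix proteins, *Tgfbi* encodes a secreted protein that binds collagens and integrins and is a classic TGF-beta-induced gene. ECs had few UMIs of it, 79 in the control and 44 in the CKO, at 13.6 CPM (10.8 to 17.0) and 6.42 CPM (4.67 to 8.62). The CKO was 2.12-fold lower, a ratio of 0.472 (0.319 to 0.690), and the interval reaches well above the 2-fold limit. It was not past 2-fold in nuclei taken by EC markers (0.517), in EC nuclei without cycling markers (0.552) or as a mean over nuclei (0.721). Glia had the highest level in both libraries among labels with at least 100000 UMIs, 50.2 and 82.1 CPM, with a ratio of 1.64 (1.10 to 2.40), and ECs were 4th in both. Control microglia, under that limit, were at 87.6 CPM from 7 UMIs. Only glia could be compared outside ECs. vSMCs had 32 control and 3 CKO UMIs, too few for a comparison. Summed over all nuclei not labeled ECs, *Tgfbi* was at 3.84 and 2.23 CPM, a ratio of 0.581 (0.420 to 0.794), a sum over labels that make up different shares of the libraries.

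*Ltbp1* encodes a latent TGF-beta binding protein, which anchors the latent ligand in the extracellular matrix. It was nearly absent from control ECs, with 35 UMIs or 6.03 CPM (4.20 to 8.39), and had 192 UMIs or 28.0 CPM (24.2 to 32.3) in CKO ECs. The CKO ratio was 4.64 (3.23 to 6.86), a log2 ratio of 2.22, and *Ltbp1* stood 154th from the highest of 11351 genes. That ratio depends on the EC label: in nuclei taken by EC markers whatever their label it was 0.961 (0.811 to 1.14). ECs were 17th of 20 labels in the control and 6th of 18 in the CKO, and their share of all *Ltbp1* UMIs was 2.07% and 22.3%. OPCs at 236 CPM and vSMCs at 227 CPM led the control order with overlapping intervals, ahead of astrocytes at 153 CPM. None of the other labels had a ratio near that of ECs. OPCs were at 236 and 91.0 CPM (123 and 19 UMIs), a ratio of 0.385 (0.224 to 0.627), and vSMCs at 227 and 155 CPM, a ratio of 0.682 (0.479 to 0.948). Astrocytes had 153 and 184 CPM, a ratio of 1.20 (0.929 to 1.54). Of 10 labels compared, 6 had a ratio below 1, and in none but OPCs was it past 2-fold.

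Put side by side over labels, the members differ in where they are lower. Of 51 pairs of a member and a label outside ECs with at least 50 UMIs, 2 were at least 2-fold lower, *Ski* in microglia and *Ltbp1* in OPCs, beside 7.07% of 96876 such pairs over all genes. That share was 64.3% within microglia and 10.6% within OPCs. Another 4 were at least 2-fold higher, *Spsb1* in astrocytes and *Pmepa1* in CP_6, CP_8 and Glut_1, beside 2.36% of all pairs. *Spsb1*, *Pmepa1* and *Skil* were at least 2-fold lower in ECs and in none of the 4, 9 and 10 other labels in which they could be compared, out of 20. Labels under 50 UMIs were not compared and went both ways for *Skil*. Oligodendrocytes had 14 control and 0 CKO UMIs of it (ratio interval 0 to 0.642), and astrocytes 3 and 5. Whether the ratio in ECs differs from that in another label was not tested, since each genotype has 1 library. Over all nuclei not labeled ECs, the ratio was 1.20 (1.07 to 1.36) for *Spsb1*, 1.37 (1.26 to 1.49) for *Pmepa1* and 1.16 (1.05 to 1.29) for *Skil*. *Ski* gave 1.08 (1.03 to 1.14), *Tgif1* 0.916 (0.688 to 1.21), *Bambi* 0.841 (0.572 to 1.22) and *Ltbp1* 0.735 (0.671 to 0.805). These sums mix cell types that make up different shares of the libraries. The labels of fewest CKO nuclei, 11 microglia, 22 pericytes and 53 GABA_22, had 1, 0 and 0 members compared. The 103 CKO nuclei labeled vSMCs allowed 4.

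**Figure D2:**
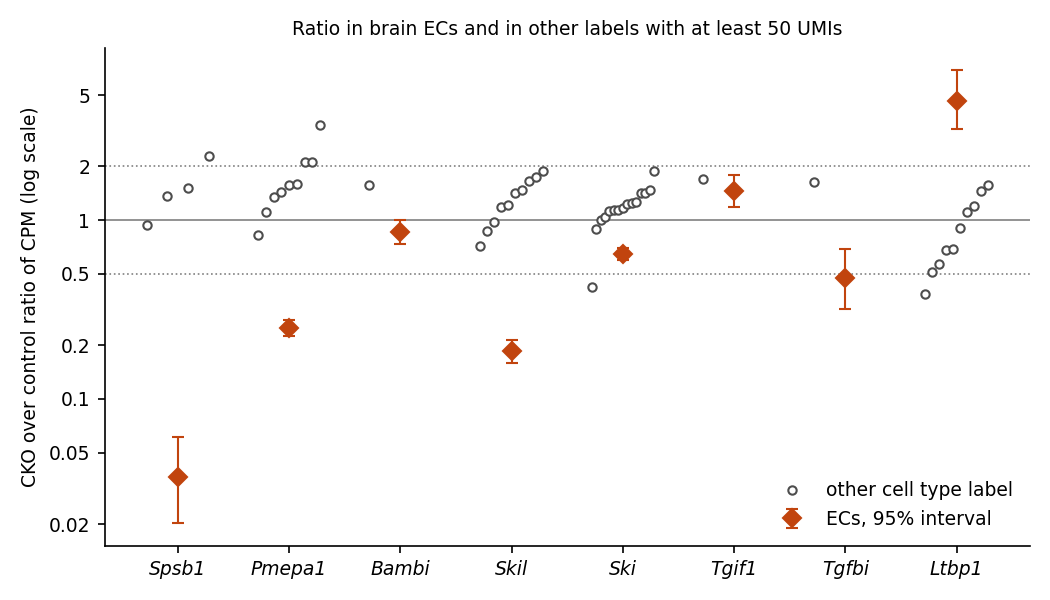
CKO over control ratio of CPM (log scale) of each member in brain ECs (diamonds, with 95% exact conditional binomial intervals) and in every other label with at least 50 UMIs over both libraries (open circles, 1 per label). Solid and dotted lines mark a ratio of 1 and the 2-fold limits of 0.5 and 2. The EC diamonds of *Spsb1*, *Pmepa1* and *Skil* lie below all circles of the same gene, and that of *Ltbp1* lies above them.

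The lower sums of *Spsb1*, *Pmepa1* and *Skil* came with fewer nuclei that had a UMI and with fewer UMIs in those that did. Nuclei were thinned to 500 UMIs each to compare shares at equal depth, which kept 2059 control and 2601 CKO EC nuclei and left out 416 and 343. *Spsb1* was found in 3.89% of control nuclei (80 nuclei, exact interval 3.09 to 4.81) and in 0.0769% of CKO nuclei (2 nuclei, 0.00931 to 0.277). *Pmepa1* was found in 14.1% (12.6 to 15.7) and 3.04% (2.41 to 3.77), and *Skil* in 9.52% (8.29 to 10.9) and 1.19% (0.811 to 1.69). For these genes the intervals of the libraries were apart. *Ski* had 9.66% and 6.50%, *Bambi* 2.62% and 3.08%, *Tgif1* 1.99% and 2.35%, *Tgfbi* 0.389% and 0.346%, and *Ltbp1* 0.194% (4 nuclei) and 1.11% (29 nuclei). Without thinning, the shares in control and CKO were 11.8% and 0.476% for *Spsb1*, 37.8% and 13.4% for *Pmepa1*, 28.0% and 6.35% for *Skil*, 32.9% and 25.1% for *Ski*, 11.6% and 10.3% for *Bambi*, 5.33% and 7.64% for *Tgif1*, 2.26% and 1.36% for *Tgfbi*, and 1.01% and 6.01% for *Ltbp1*. Per nucleus with at least 1 UMI, the mean count was 1.76 in the control and 1.22 in the CKO for *Pmepa1*, 1.40 and 1.13 for *Skil*, and 1.19 and 1.07 for *Spsb1*.

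For comparison with these shares, the glutamatergic neurons of label Glut_0 were read in the same way, since they lie outside the vessel wall. These nuclei were at 30.1 and 40.7 CPM of *Pmepa1*, 20.8 and 29.6 CPM of *Skil*, and 90.7 and 133 CPM of *Ski* (control and CKO). Their shares are therefore not a background for these members. Their median depths were 5004 UMIs (control) and 2314 UMIs (CKO), against 1347 and 1491 in ECs. After thinning, *Spsb1* was in 0 of 2066 control Glut_0 nuclei, so a share as high as 0.145% (the share at a floor of 3 nuclei, used for every 0 here) is not excluded, and in 1 of 2926 CKO nuclei (0.0342%). *Bambi*, *Tgif1* and *Tgfbi* were in 0 nuclei of both libraries, with limits of 0.145% and 0.103%. *Pmepa1* was in 1.11% and 1.40% of them, *Skil* in 0.726% and 1.37%, *Ski* in 3.24% and 5.16%, and *Ltbp1* in 1.31% and 0.615%. The *Spsb1* share of CKO ECs had an interval that reached down to the share in these neurons, and the interval of the *Skil* share of CKO ECs includes the share in CKO Glut_0 and lies above that in control Glut_0. The *Ltbp1* share of control ECs was also below that of Glut_0, a label with *Ltbp1* at 26.7 CPM in the control. Taking *Spsb1*, *Skil* and *Pmepa1* together, 75.1% of control EC nuclei had none of the 3, 22.3% had 1, 2.43% had 2, and 2 nuclei had all 3. In CKO ECs 95.8% had none, 4.08% had 1, 0.115% had 2, and 0 of 2601 had all 3, which allows up to 0.115% by a floor of 3 nuclei and 0.142% by the exact interval.

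The same ratios were taken in subsets of EC nuclei by their pericyte and cycling markers. At least 1 UMI of a cycling marker was found in 340 control EC nuclei (13.7%) and in 969 CKO EC nuclei (32.9%). In the nuclei without one, the ratio was 0.0303 for *Spsb1*, 0.237 for *Pmepa1*, 0.171 for *Skil* and 4.71 for *Ltbp1*, all close to the values over all EC nuclei, and 0.552 for *Tgfbi*, no longer past 2-fold. At least 1 UMI of a pericyte marker was found in 85.3% of control and 95.5% of CKO EC nuclei. The few nuclei without any, 363 in the control and 133 in the CKO, held 31 and 0 UMIs of *Spsb1*, 44 and 0 UMIs of *Skil*, and 93 and 5 UMIs of *Pmepa1*. Against a floor of 3 counts, *Spsb1* was at least 3.51-fold lower and *Skil* at least 4.98-fold lower in these CKO nuclei, while the exact intervals of their ratios reach up to 0.372 and 0.258, and the *Pmepa1* ratio was 0.158 (0.0503 to 0.383). *Spsb1* and *Skil* are under the minimum of 50 UMIs in these nuclei, and the part of pericyte transcripts in the EC values was not tested further. *Tgfbi* had 0 UMIs there in both libraries, and *Ltbp1* had 1 and 0, so neither could be compared. Another subset, chosen after seeing the data, took EC nuclei with at least 2 EC marker UMIs for each pericyte marker UMI, 1195 in the control and 939 in the CKO. In it pericyte markers were at 4085 and 3703 CPM. *Spsb1* had 145 control UMIs and 1 CKO UMI (ratio 0.00798, 0.000201 to 0.0452), *Skil* 346 and 37 (0.124), *Pmepa1* 594 and 110 (0.214), and *Ltbp1* 5 and 36 (8.33, 3.26 to 27.2).

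The set behind the *Ltbp1* ratio of 0.961 held all nuclei with UMIs of at least 2 EC markers (3178 control and 3075 CKO nuclei). In it, 221 control *Ltbp1* UMIs came from 377 nuclei labeled vSMCs and 35 from nuclei labeled ECs, and in the CKO 36 came from 81 nuclei labeled vSMCs and 192 from nuclei labeled ECs. *Spsb1* (0.102), *Skil* (0.259) and *Pmepa1* (0.344) stayed more than 2-fold lower in that set.

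Other genes of the pathway were read from fixed lists of 58 genes, 49 of which had at least 50 UMIs in ECs. Of these 49, 8 were at least 2-fold lower and 4 at least 2-fold higher, where 3.9% and 9.45% of all genes were, and the median log2 ratio was -0.19 against 0.14 over all genes. The lists were chosen with earlier results of these data known, so nothing is read from their counts beside that background. Of 20 other genes known to be induced by TGF-beta and SMAD2/3, 6 were at least 2-fold lower and 0 higher, with a median log2 ratio of -0.49. *Eln*, which encodes elastin, was at 168 CPM in the control and 15.6 CPM in the CKO, a ratio of 0.0930 (0.0755 to 0.114). *Cdkn2b*, a cell cycle inhibitor, was at 71.9 and 10.7 CPM (0.148, 0.114 to 0.190), and *Fn1*, fibronectin, at 1850 and 503 CPM (0.272, 0.262 to 0.283). These 3 had the lowest ratios of the list. A further cell cycle inhibitor, *Cdkn1a*, was at 247 and 86.3 CPM (0.349), and the inhibitory SMAD gene *Smad7* at 200 and 80.0 CPM (0.400). The 14 others were within 2-fold, among them *Ldlrad4* (0.527), *Klf10* (0.558), *Ccn2* (0.878), *Col4a2* (0.929) and *Col4a1* (1.28). *Thbs1*, with 13 UMIs, was not compared.

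Of the ligands, receptors and SMADs, 11 genes, 0 were lower by 2-fold and 2 were higher, with a median log2 ratio of 0.20. *Tgfbr3*, the coreceptor betaglycan, was at 120 CPM in the control and 351 CPM in the CKO (2.92, 2.68 to 3.18), and the ligand gene *Tgfb3* at 3.62 and 7.88 CPM (2.18, 1.29 to 3.80). Just short of 2-fold higher were *Tgfb2* (1.90) and *Tgfbr2* (1.87), the latter at 396 and 742 CPM. *Smad2* (1.14), *Smad3* (1.22), *Smad4* (1.15), *Tgfb1* (0.974), *Acvrl1* (0.741) and *Eng* (0.665) were within 2-fold. BMP and ALK1 response genes had 5 of 8 with enough UMIs, and all 5 were within 2-fold, with a median log2 ratio of -0.53: *Id1* (0.572), *Smad6* (0.609), *Id2* (0.691), *Id3* (0.768) and *Hey1* (0.970). Among 7 of 9 genes of latent TGF-beta storage and activation with enough UMIs, 1 was lower and 2 were higher, with a median of 0.29. *Nrros* was at 37.1 and 111 CPM (2.99) and *Lrrc32* at 16.7 and 44.8 CPM (2.68), both of which encode membrane proteins that hold latent TGF-beta on the cell surface. *Fbn2*, a fibrillin gene, was at 8.27 and 3.06 CPM (0.370).

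Of 13 paralogs of the members, 9 had enough UMIs, 1 of them was at least 2-fold lower, and the median log2 ratio was 0.29. *Spsb2* was at 8.79 and 4.23 CPM (0.481, 0.294 to 0.774) and *Spsb3* at 7.07 and 12.4 CPM (1.76, 1.20 to 2.61), while *Spsb4* had 6 UMIs. For the corepressors, *Dach1* gave 1.06 and *Dach2* 1.28, *Skor1* had 1 UMI and *Skor2* 0, and *Tgif2* was at 7.93 and 15.3 CPM (1.93, 1.35 to 2.80). *Ldlrad4*, the relative of *Pmepa1*, was at 397 and 209 CPM (0.527), and *Postn*, the relative of *Tgfbi*, at 23.8 and 34.0 CPM (1.43). Among the binding proteins related to *Ltbp1*, *Ltbp4* was at 592 and 343 CPM (0.579, 0.549 to 0.611) and *Ltbp3* at 4.31 and 5.25 CPM (1.22), and *Ltbp2* had 12 UMIs. Neither *Ltbp3* nor *Ltbp4* came near the ratio of *Ltbp1*.

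The genes with levels most like each member over the brain were found by Pearson's r of log2(CPM + 1) over 38 sums of a label and a library, among 14448 genes. All points share 2 libraries and differ in depth, so r is a description. Over these sums *Bambi* was most like *Casp6* (0.974), *Crip2* (0.965) and *Gsta4* (0.964), and *Tgif1* most like *Spef1* (0.950), *Lpar4* (0.928) and *4931403E22Rik* (0.923). *Tgfbi* was nearest to *P3h4* (0.937), *Shc1* (0.912) and *Gm20186* (0.897), and *Skil* to *Grk6* (0.921), *Lage3* (0.880) and *Smim14* (0.879). *Spsb1* was nearest to *Sirt2* (0.867), *Bcas1* (0.858) and *Kank1* (0.858), with EC ratios of 0.978 (0.780 to 1.23), 0.506 (0.348 to 0.730) and 0.195 (0.163 to 0.234). For *Pmepa1* the nearest were *Tmed10* (0.852), *Pcyox1* (0.828) and *Commd1* (0.816), for *Ski* *St3gal2* (0.768), *Ahdc1* (0.762) and *Frmd6* (0.760), and for *Ltbp1* *Ampd3* (0.723), *Gm32618* (0.698) and *Disc1* (0.697). Between members, r was highest for *Bambi* and *Tgif1* (0.852), then for *Bambi* and *Tgfbi* (0.633) and for *Pmepa1* and *Skil* (0.620).

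The retina gives replicates of the CKO but has no EC label. EC markers over whole libraries were at 68.3 CPM in the control and 51.2, 80.4 and 129 CPM (lowest, median, highest) in the CKO libraries, and they were highest in nuclei labeled MG, at 934 CPM in the control and 773, 838 and 1489 CPM in 10 CKO libraries, led by *Flt1*. Levels are given for libraries with at least 20 nuclei of a label, which leaves out CKO replicate 4 from most labels and CKO replicate 10 from immune cells. In astrocytes it leaves out the control, with 12 nuclei, and all but 4 CKO libraries, so that label has no control value. A single control of batch 1 stands beside CKO libraries of 3 batches. Of 45 pairs of a member and a label with at least 50 UMIs, the control lay within the range of the CKO libraries in 32, below all of them in 13 and above all of them in 0. Over 122419 pairs of all genes, the control was below all CKO libraries in 7.04% and above all in 4.64%. Within batch 1 the control lay within the range of 3 CKO libraries in 19 of the 45, below it in 20 and above it in 6, beside 25.4% below and 20.8% above over all genes. Since the members were chosen with these values known, nothing is read from the counts.

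In the order of mean CKO levels, *Pmepa1* and *Ltbp1* led in MG, the radial glia of the retina. *Pmepa1* was at 249.5 CPM in control MG and at 131, 171 and 263 CPM in the CKO libraries, with a mean of 188 ± 41.2 (SD, n = 10). All 3 CKO libraries of batch 1, at 131 to 172 CPM, were below the control, while 2 libraries of the later batches were above it. In GABA_AC the control was at 69.8 CPM and the CKO at 45.1, 61.5 and 78.0 CPM, with batch 1 at 45.1 to 59.6 CPM and so below the control. The batch 1 control was also above the CKO in CBC (26.1 against 19.9 to 24.8 CPM) and RBC (11.0 CPM from 23 UMIs against 1.25 to 6.69 CPM). Over 10 labels it was above the 3 CKO libraries in 4 and below them in 4. *Pmepa1* in HC was lower in the control than in all 10 CKO libraries, at 17.4 CPM from 13 UMIs against 24.3, 32.5 and 53.1 CPM. The same held in Gly_AC, at 20.9 CPM from 74 UMIs against 24.4, 27.2 and 32.0 CPM. *Ltbp1* was at 159 CPM in control MG and at 163, 208 and 245 CPM in the CKO, with a mean of 199 ± 29.2 (n = 10). In Gly_AC it was at 87.7 CPM in the control and at 105, 149 and 188 CPM in the CKO (145 ± 26.7, n = 10), and in GABA_AC at 23.6 CPM and 24.6, 38.7 and 49.1 CPM. In these 3 labels the control was below all 10 CKO libraries, by little in MG and GABA_AC.

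Immune cells had the highest mean CKO level of *Spsb1*, *Skil*, *Ski*, *Tgif1* and *Tgfbi*, but the control held few UMIs there. *Spsb1* had 2 UMIs (17.5 CPM) in the control and was at 43.1, 61.7 and 112 CPM in 10 CKO libraries. *Tgfbi* had 1 UMI (8.74 CPM) in the control and was at 10.8, 69.8 and 372 CPM in the CKO, and *Tgif1* had 3 UMIs (26.2 CPM) against 0, 15.5 and 30.4 CPM. With so few UMIs in the control these differences are not read. The study found microglia in both genotypes but other retinal immune cells in the CKO only. Immune cells of the control and of the CKO are therefore not the same mix of cells. *Ski* was at 192 CPM in control immune cells against 136, 224 and 464 CPM, and its control lay within the range over all CKO libraries in the 10 labels compared. Within batch 1 the *Ski* control was above the 3 CKO libraries in 2 of them, CBC (30.4 against 25.7 to 28.2 CPM) and cones (30.4 against 18.1 to 24.1 CPM). *Ski* in astrocytes followed immune cells in the order, at a mean of 217 CPM over 4 CKO libraries, and MG came next at 125 CPM. *Skil* in immune cells was at 78.6 CPM in the control and 73.6, 100.3 and 169.5 CPM in the CKO. In HC it was at 14.7 CPM from 11 UMIs in the control and at 27.6, 45.0 and 62.9 CPM in the CKO, and in CBC at 26.1 CPM and 28.4, 40.1 and 51.5 CPM, with the control below all 10. *Skil* levels of the 2 kits overlapped in cones, HC, MG and immune cells and lay apart in other labels with a control value; in rods, libraries of the v4.0 PLUS kit were at 20.8 to 35.1 CPM and those of the v5.0 kit at 39.8 to 45.5 CPM. The part of the kit in the *Skil* levels was not tested. *Bambi* was low throughout, highest in MG at 5.29 CPM in the control and 5.40, 6.68 and 9.84 CPM in the CKO. Levels of neighboring labels in each order often overlapped in range, as those of *Spsb1* in immune cells and astrocytes did.

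**Figure D3:**
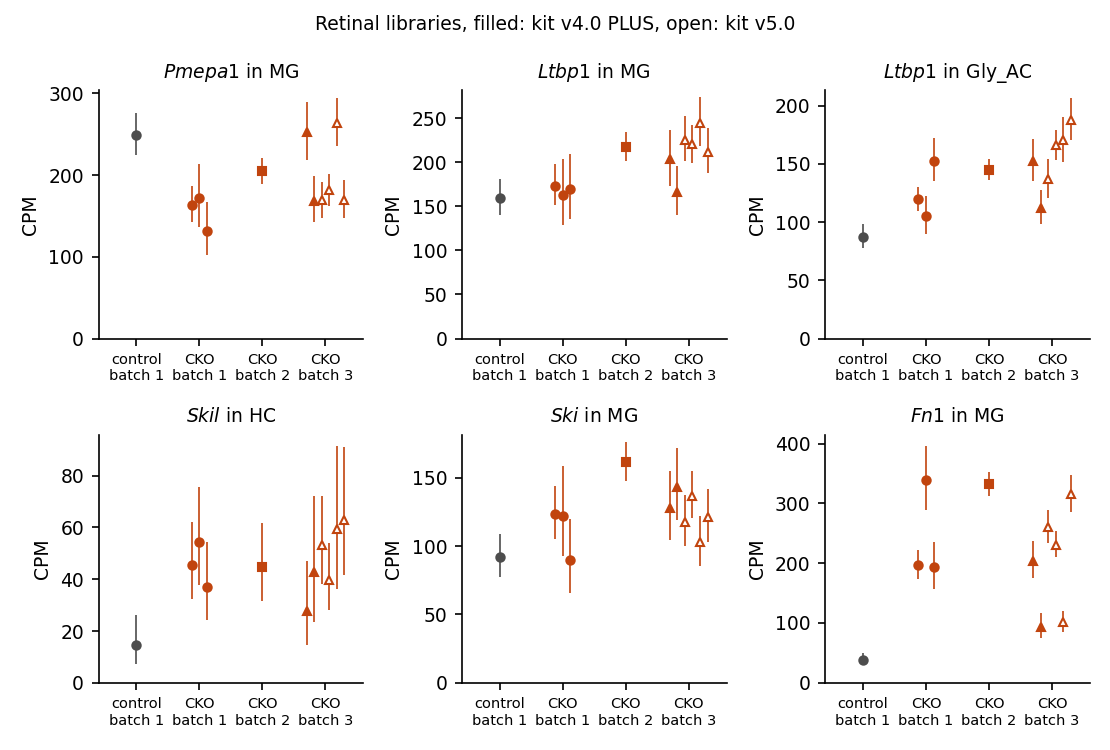
Level (CPM) of *Pmepa1*, *Ltbp1*, *Skil*, *Ski* and *Fn1* in retinal labels, 1 point per library with its 95% exact Poisson interval, the control in gray and the CKO libraries in orange, by batch; filled points are the v4.0 PLUS kit and open points the v5.0 kit. The control point of *Fn1* in MG, at 38.4 CPM, lies below all 10 CKO points, which run from 93.8 to 339 CPM.

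Genes were tested in batch 1 with edgeR, 1 control against 3 CKO libraries in each of 10 labels, with the single control assumed to vary like the CKO libraries. Over 92514 pairs of a gene and a label, 9 were lower in the CKO (0.00973%) and 26 higher (0.0281%) at an adjusted p threshold of 0.05, and 4081 had an unadjusted p under 0.05. Of the members, edgeR called 0 of 34 pairs, with 4 at an unadjusted p under 0.05, and DESeq2 called 0, with 2 at an unadjusted p under 0.05. Nothing is read from these counts, since the members were chosen with the same values known. An exact permutation test could not go below p = 0.25 with 1 against 3 libraries, or below p = 0.0833 with 1 against 11. Of 214 pairs of a fixed pathway gene and a label, edgeR called 1, *Fn1* in MG, and DESeq2 called 2, the other being *Col4a1* in rods (log2 3.08, DESeq2 adjusted p = 0.0359). *Itgb8* and *Dach2* in MG were called by edgeR without CKO replicate 3 or with no filter on low counts, but not in the main run. With no filter edgeR also called *Col4a1* in rods (log2 3.02), which it did not call in the main run. *Fn1* in MG was at 38.4 CPM (58 UMIs) in the control and at 93.8, 218 and 339 CPM in the CKO, and between 193 and 339 CPM in batch 1. *Fn1* was above the same single control in 10 of 10 CKO libraries of all batches, and in batch 1 the log2 difference was 2.57 (SE 0.36, edgeR adjusted p = 0.0322). In the other labels where it was tested, *Fn1* was also higher in the CKO of batch 1 but was not called. The log2 differences there were 0.497 in CBC, 1.15 in Gly_AC, 1.34 in RGC, 1.38 in HC and 1.54 in GABA_AC. In the same MG nuclei 4 of 5 fibroblast markers (*Lum* at 0), led by *Pdgfra*, summed to 1.99 CPM for the control against 9.79, 13.9 and 30.6 CPM for the CKO, and all 5 vSMC markers, led by *Myocd*, to 9.26 CPM against 7.12, 33.4 and 60.8 CPM. *Fn1* had a mean of 442 CPM in retinal astrocytes of 4 CKO libraries, and the part of such transcripts in the *Fn1* values of MG was not tested. The call was lost without CKO replicate 1 (edgeR adjusted p = 0.248, log2 2.73) and with all libraries and batch as a covariate (adjusted p = 0.391, log2 2.57), and DESeq2 gave an adjusted p of 4.71e-07. In brain ECs the same gene was lower in the CKO library, at 1850 and 503 CPM. The count of 35 calls over all genes was 349 without CKO replicate 1, 274 without replicate 2, 428 without replicate 3, 143 by DESeq2 and 6 with all libraries and batch as a covariate.

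Promoters were read because 4 members were lower together in ECs. RefSeq sequences of build GRCm38.p6 held 10 promoters of 5 of the 8 members, *Spsb1*, *Ski*, *Tgfbi*, *Tgif1* and *Ltbp1*. In the 250 bases before each start, CAGAC, the core of the SMAD binding element, or GTCTG on the other strand, was found in 6 of the 10, and GGCGCC, a GC-rich SMAD motif that reads alike on both strands, in 2. Over all 32851 promoters of the same length, with no chromosome left out, 42.2% held CAGAC or GTCTG and 9.59% held GGCGCC. A match is a description and not a binding site, and a missing match says only that these letters are not in this window. The sequences of *Spsb1*, with the lowest EC ratio, of *Tgfbi*, the other lower member with a promoter in the table, and of both starts of *Ltbp1*, the member with the highest ratio, are shown to let these windows be compared, each 5′ to 3′ on the strand of the gene, in lower case with the motifs in capitals. *Spsb1* (chr4:149955007-149955256, minus strand) has 0 matches of either motif. *Tgfbi* (chr13:56609336-56609585, plus strand) has 2 of CAGAC or GTCTG and 1 of GGCGCC. *Ltbp1* has 1 of CAGAC or GTCTG before start 1 (chr17:75005279-75005528, plus strand) and 2 before start 2 (chr17:75178531-75178780, plus strand).
Spsb1: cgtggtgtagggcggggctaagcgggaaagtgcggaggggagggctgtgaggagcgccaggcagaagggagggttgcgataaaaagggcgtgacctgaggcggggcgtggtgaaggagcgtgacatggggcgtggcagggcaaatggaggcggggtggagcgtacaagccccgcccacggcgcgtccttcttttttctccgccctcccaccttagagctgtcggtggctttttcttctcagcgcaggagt
Tgfbi: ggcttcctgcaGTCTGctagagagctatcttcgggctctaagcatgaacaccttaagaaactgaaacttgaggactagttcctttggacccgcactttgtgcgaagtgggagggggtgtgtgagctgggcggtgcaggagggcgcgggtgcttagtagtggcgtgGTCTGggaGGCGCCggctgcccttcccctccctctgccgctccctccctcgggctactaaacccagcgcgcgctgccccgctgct
Ltbp1 start 1: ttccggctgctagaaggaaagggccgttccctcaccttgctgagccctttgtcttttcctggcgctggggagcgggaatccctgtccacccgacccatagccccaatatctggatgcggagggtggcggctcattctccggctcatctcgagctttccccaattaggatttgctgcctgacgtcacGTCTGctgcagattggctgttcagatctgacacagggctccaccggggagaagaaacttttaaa
Ltbp1 start 2: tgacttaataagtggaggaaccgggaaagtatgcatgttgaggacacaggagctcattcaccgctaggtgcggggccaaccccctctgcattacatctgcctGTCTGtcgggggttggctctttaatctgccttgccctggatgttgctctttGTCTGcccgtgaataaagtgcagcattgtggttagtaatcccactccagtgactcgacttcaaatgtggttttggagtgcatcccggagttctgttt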

How the data were processed

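Nuclei from whole retinas and from brain vascular fragments were analyzed. The authors deposited UMI counts per gene and nucleus, with a cell type label, batch and kit for each nucleus. Per the methods they had used PIPseeker for alignment, CellBender to remove background, SOLO to remove doublets, manual removal of mixed nuclei, and Seurat. By hand they also removed clusters that held multiple nuclei of retinal CKO replicates 4 and 5. UMIs were summed per cell type label and library and given as CPM. Brain libraries were compared as CKO over control ratios with 95% exact conditional binomial intervals where a gene had at least 50 UMIs over both libraries, and a difference counted past 2-fold. Single levels have exact Poisson intervals and shares of nuclei exact binomial intervals. Retinal sums of batch 1 were tested with edgeR 4.0.16 (quasi-likelihood, TMM, Benjamini-Hochberg, threshold 0.05, genes with at least 50 UMIs, labels with at least 20 nuclei per library) and, as an alternative, DESeq2 1.42.0 in R 4.3.3. Other steps used Python 3.11.15, numpy 2.4.6, pandas 2.3.3, scipy 1.17.1 and matplotlib 3.10.9. The steps were tested on simulated data.

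The members and lists were chosen with earlier results of these data known. Genes named are the 8 members, genes of the fixed lists past 2-fold in brain ECs or called in retinal labels, all paralogs of the members, and the 3 genes with the highest Pearson r with each member over sums of at least 100000 UMIs, among genes with at least 200 UMIs. The value of 1 gene of the fixed lists is not reported here. List genes within 2-fold that are named were chosen after their values were seen. Thinning drew 500 UMIs per nucleus with a fixed seed. The authors' normalized embedding was not used here.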

Additional observations from a re-analysis of the deposited data

Results flagged for a closer look

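In the brain, 5 of 51 pairs of a member and a label outside ECs went past 2-fold in the direction opposite to ECs, 4 higher and 1 lower. Over all genes 2.36% of 96876 pairs were at least 2-fold higher and 7.07% lower. *Spsb1* had a CKO over control ratio of 2.27 in astrocytes, against 0.0366 in ECs. *Pmepa1* had ratios of 2.10 in CP_6, 2.12 in CP_8 and 3.41 in Glut_1, against 0.249 in ECs. *Ltbp1* had a ratio of 0.385 in OPCs, against 4.64 in nuclei labeled ECs and 0.961 in nuclei taken by EC markers. The difference between these labels and ECs was not tested, since each genotype has 1 brain library.

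In the retina, 41 pairs of a member and a label had between 4 and 10 CKO libraries and at least 50 UMIs over them. These were searched for a library far from the others, and 4 had one. *Pmepa1* in HC was at 53.1 CPM in CKO replicate 6 and at 24.3 to 38.6 CPM in the others. *Ski* in immune cells was at 464 CPM in CKO replicate 6 and at 136 to 288 CPM in the others. *Spsb1* in Gly_AC was at 8.50 CPM in CKO replicate 7 and at 0.530 to 3.04 CPM in the others. *Tgfbi* in immune cells was at 372 CPM, from 16 UMIs, in CKO replicate 4, the library of 104 nuclei, and at 10.8 to 116 CPM in the others. Chance alone marks about 1 in 20 groups in this way.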

How the results depend on the processing

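By the ratio alone, with no minimum of UMIs, *Spsb1*, *Pmepa1* and *Skil* were past 2-fold lower in brain ECs under all 8 alternatives tried for each, with ratios (or bounds from a floor of 3 counts, where the CKO had 0 UMIs) of 0.00798 to 0.285, 0.156 to 0.344 and 0.0944 to 0.259. Read in the same way, *Tgfbi* was past 2-fold lower under 4 of 7 (0.426 to 0.721), in 1 case from 8 and 3 UMIs, and *Ltbp1* past 2-fold higher under 6 of 7, in 1 case from 5 and 36 UMIs.

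With nuclei chosen by at least 2 EC markers, *Ltbp1* reversed to 0.961, which left 0 members higher. Ratios of *Spsb1* (0.102), *Pmepa1* (0.344), *Skil* (0.259), *Ski* (0.740) and *Bambi* (1.11) also moved; the labels of the added nuclei are given with the results, and the cause was not tested further. In EC nuclei without pericyte marker UMIs, 1 member was lower and 0 were higher, since the others had under 50 UMIs there. *Spsb1* had a bound of 0.285 in them, *Pmepa1* a ratio of 0.158, *Bambi* 0.327 from 9 and 1 UMIs, and *Tgif1* 2.95 from 4 and 4 UMIs. *Tgfbi* and *Ltbp1* gave no ratio in these nuclei. In EC nuclei with at least 2 EC marker UMIs for each pericyte marker UMI, chosen after seeing the data, *Spsb1* was at 0.00798, *Pmepa1* 0.214, *Skil* 0.124, *Bambi* 0.671 and *Ltbp1* 8.33, the last from 41 UMIs, so that 0 members counted as higher. With equal weight for each nucleus the ratios were 0.0191 for *Spsb1*, 0.156 for *Pmepa1*, 0.0944 for *Skil*, 0.587 for *Ski* and 0.721 for *Tgfbi*. Nuclei of at least 1000 UMIs gave 0.285 for *Pmepa1*, and scaling to the median gene gave 0.593 for *Ski*.

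A fold of 1.5 in place of 2 gave 14 list genes lower and 8 higher in ECs (8 and 4 at 2-fold), and 4 pairs of a member and another label lower and 15 higher (2 and 4 at 2-fold). A minimum of 200 UMIs left 5 list genes lower and 0 such pairs lower and 0 higher, and a minimum of 20 UMIs gave 14 pairs higher. Asking also for an interval without 1 left 1 pair lower. CKO over control ratios of the share of EC nuclei, 0.216 for *Pmepa1*, 0.125 for *Skil* and 1.17 for *Bambi* at 500 UMIs, were 0.310, 0.200 and 0.786 at 1000 UMIs, and without thinning 0.355 for *Pmepa1* and 0.227 for *Skil*.

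In the retina the 35 calls of edgeR became 143 with DESeq2, 714 with no filter on low counts and 6 with all libraries and batch as a covariate. Leaving out 1 CKO library of batch 1 gave 274 to 428 calls. With no filter, 1 member was called, *Pmepa1* in MG, at a log2 difference of -0.77, from which nothing is read. The causes were not tested. Of 162 values recomputed, 108 stayed the same, meaning a ratio within the 95% interval of the reported one, a count of genes or pairs within 1.5 times, or a call of *Fn1* in MG that was kept. Of the others, 43 moved, 9 were weaker, 1 was stronger and 1 reversed. No paired analysis was possible because the control has 1 library in each tissue. A single library per genotype in the brain, and the low UMI counts of *Tgfbi*, *Tgif1* and *Ltbp1* in ECs, limit what these values can show.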
